A study of Mus musculus with 15 samples.

Results

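The response to curdlan for 2 h was examined in cells given the calcineurin blocker FK506. The members are the 3 arrays of D1 cells given curdlan with FK506 for 2 h and the 3 arrays of nontreated D1 cells, 6 of the 15 arrays of the series, and all 19937 genes with a probe set of 1 gene symbol were compared between them. D1 is a dendritic cell (DC) line kept in long-term culture, made from the spleen of C57BL/6 mice and dependent on GM-CSF, and it is 1 line. Nontreated cells received neither agent. The other group received 10 µg/ml of curdlan, a particulate beta-glucan, together with FK506 (tacrolimus). Neither group carries a named mutation or transgene. A further set of 3 arrays, of cells given the same dose of curdlan for 2 h without FK506, served to ask what FK506 had changed. Cells given FK506 alone and cells held for 2 h without curdlan are not analysed here, so that effects of curdlan, of FK506 by itself and of handling cannot be told apart in the comparison with nontreated cells.

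Curdlan binds dectin-1 (Clec7a), a C-type lectin receptor whose tail recruits the kinase SYK. SYK signals through CARD9, BCL10 and MALT1 to NF-kB and MAP kinases, and through phospholipase C gamma 2 to calcium, which activates the phosphatase calcineurin. Calcineurin dephosphorylates the NFAT transcription factors so that they enter the nucleus, and FK506 stops that step and leaves the CARD9 branch without a direct block.

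Levels are log2 intensities after RMA, and a difference of 1 on this scale is a 2-fold change. Array medians over the probe sets lay between 6.45 and 6.57, and 0 pairs of arrays were identical. Nontreated replicate 1 was the array least like the rest of its group, with a limma array weight of 0.0781, and among the arrays with curdlan alone replicate 3 received 0.119, while the 3 arrays with curdlan and FK506 received between 1.02 and 1.34. The highest weights of the first 2 groups were 5.42 for nontreated replicate 2 and 6.87 for curdlan 2 h replicate 1. Estimation of the weights stopped before its convergence tolerance was met. The DC identity of the cells was checked against 12 conventional DC markers. The integrin Itgax (CD11c), the MHC class II gene H2-Ab1 and the invariant chain gene Cd74 had mean levels of 12.24, 12.97 and 12.86 with curdlan and FK506, far above the median gene mean of 6.76. Clec9a (4.29) and Xcr1 (4.85), markers of cross-presenting cDC1, and the cytokine receptor gene Flt3 (5.84) lay below it, the first 2 also below the lower quartile of gene means of 5.28. Clec7a itself stood at 10.29, 10.50 and 10.44 without treatment and at 10.45, 10.47 and 10.53 with curdlan and FK506.

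Cells given curdlan with FK506 differed from nontreated cells in many genes. With curdlan and FK506, 361 genes were higher than in nontreated cells, which is 1.81% of the 19937 genes tested, and 107 genes, or 0.537%, were lower (limma, Benjamini-Hochberg adjusted p under 0.05 and a fold of at least 1.5). The rises were the larger changes, since 163 genes rose at least 2-fold and 38 at least 4-fold, against 10 that fell at least 2-fold. Cytokines (Il1a, Il2, Il1b, Il23a), the neutrophil attractant Cxcl2 and the early response transcription factors Atf3, Nr4a1 and Nr4a3 were among the 12 largest rises. The 3 values of each group did not overlap for 361 of the raised and 106 of the lowered genes, a state met by 35.1% of all genes tested. Without nontreated replicate 1, 316 genes were higher and 147 lower. The median log2 difference of all genes was −0.082, and centring every array on its median raised it by 0.11, which turned the split into 483 higher and 47 lower, or 91.1% of calls higher in place of 77.1%. In bulk RNA a change in the share of cells and a change in RNA per cell cannot be told apart.

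**Figure D1:**
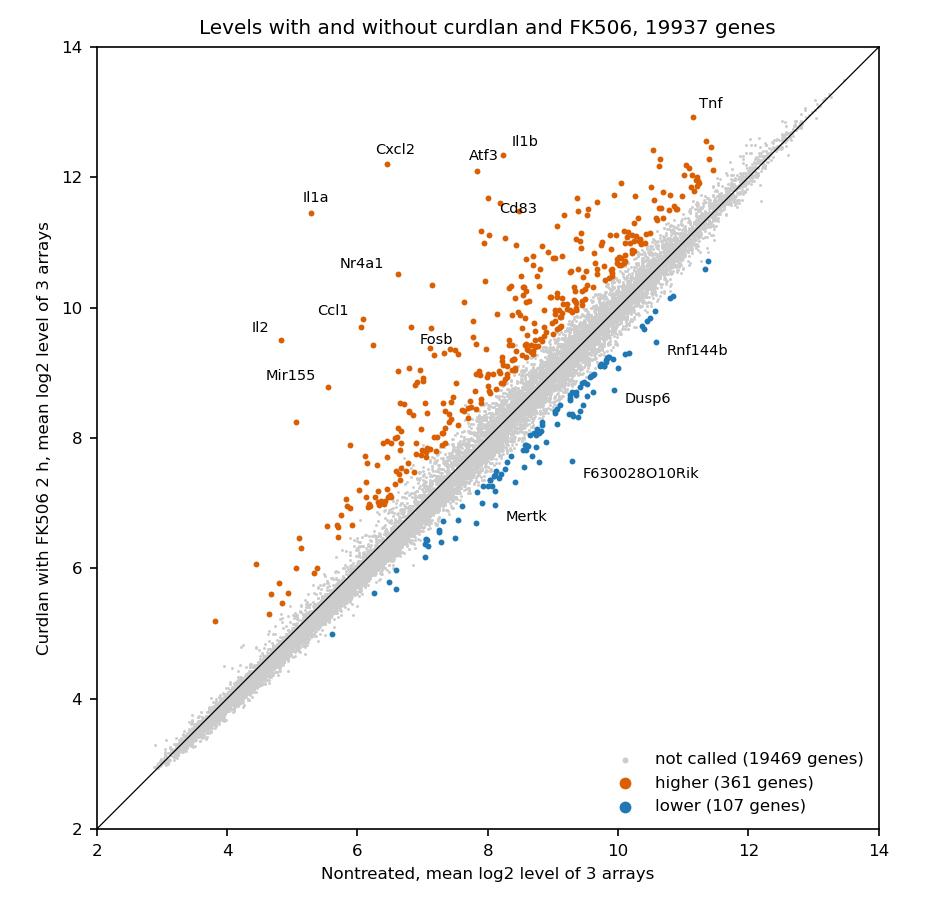
Mean log2 level of each of 19937 genes in 3 nontreated arrays (horizontal axis) and in 3 arrays with curdlan and FK506 for 2 h (vertical axis), with 361 genes called higher in orange and 107 called lower in blue. The raised genes reach farther from the line of equal levels than the lowered ones, and Il1a, Cxcl2 and Il2 lie farthest from it.

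The largest rise was that of Il1a, the gene of the alarm cytokine interleukin-1 alpha. Its log2 level was 4.98, 5.62 and 5.26 in the nontreated arrays and 11.48, 11.35 and 11.54 with curdlan and FK506, a 71.9-fold rise (log2 difference 6.17 ± 0.12, SE, limma adjusted p = 4.39e-13). Cxcl2, which draws neutrophils, went from 6.07, 6.49 and 6.81 to 12.25, 12.10 and 12.26, a 53.7-fold rise (5.75 ± 0.14). Both genes thus passed from the lower part of the range of levels to near its top, with no overlap between groups. Il2, the growth factor of T cells that DCs also make early after microbial contact, went from 4.97, 4.72 and 4.79 to 9.54, 9.33 and 9.63, a 25.4-fold rise (4.67 ± 0.08) in the presence of a calcineurin blocker. Il2 lay below the lower quartile of gene means before treatment and Il1a at it, so these folds may understate the change.

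Inflammatory cytokines and transcription factors followed. Il1b, the gene of interleukin-1 beta, read 7.64, 8.40 and 8.69 in nontreated cells and 12.38, 12.24 and 12.42 with curdlan and FK506 (4.10 ± 0.19), and nontreated replicate 1 was the lowest of its group. Atf3, a stress-induced bZIP factor, read 8.0, 7.72 and 7.81 against 12.09, 12.05 and 12.16 (4.25 ± 0.06). Il23a, the p19 subunit of interleukin-23, read 6.34, 5.57 and 6.23 against 9.65, 9.63 and 9.84 (3.66 ± 0.14). Nr4a1, an orphan nuclear receptor, rose 14.9-fold and its relative Nr4a3 rose 9.73-fold, from mean levels of 6.63 and 7.89 to 10.52 and 11.17. Ccl1, a chemokine that acts on CCR8, rose 13.3-fold, Cd83, a surface marker of mature DCs, 12.7-fold, and Gadd45b, a stress and survival gene induced by NF-kB, 10.6-fold. Mir155, the gene of microRNA-155, completed the 12 largest rises at 9.44-fold.

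**Figure D2:**
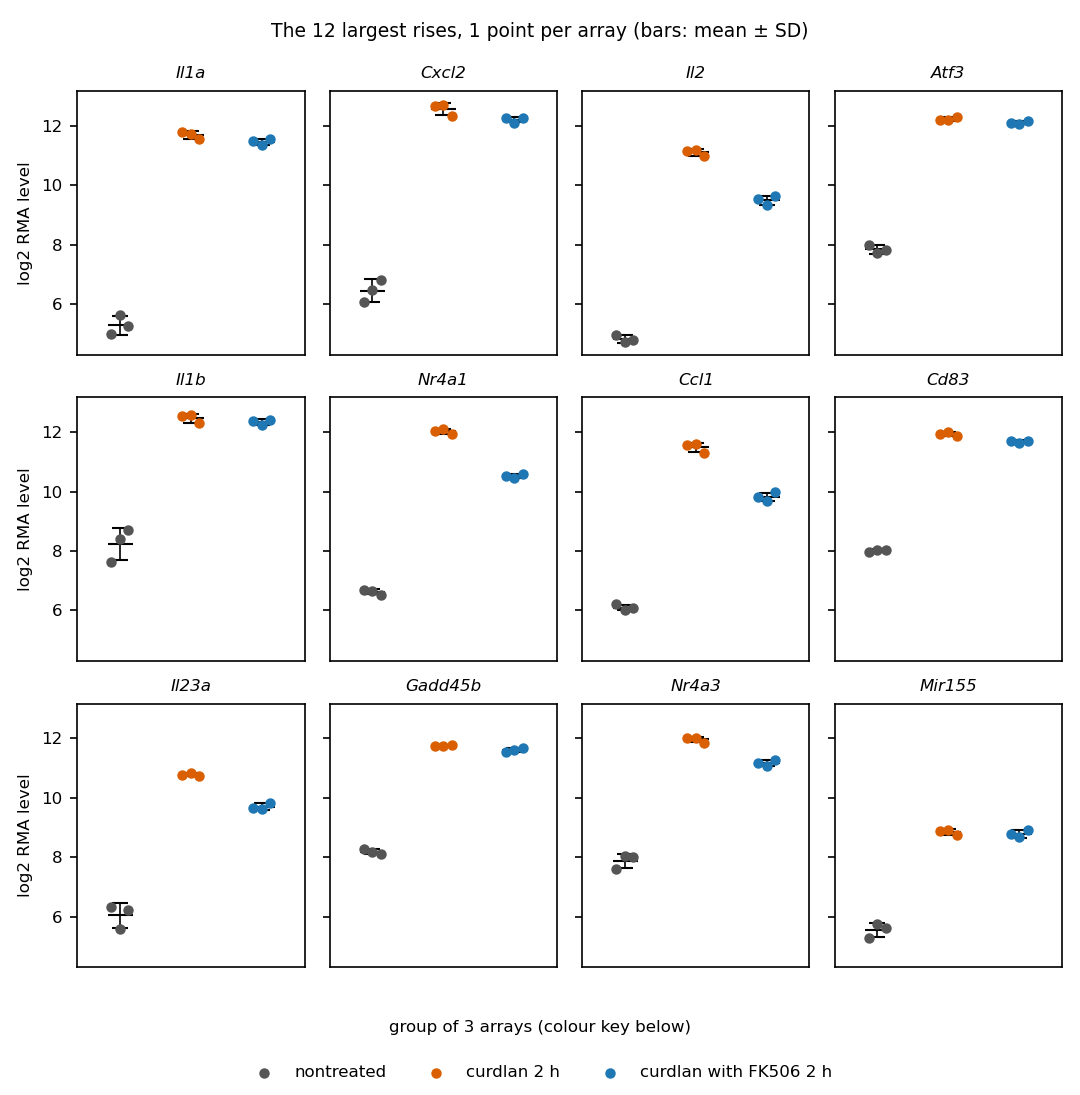
Log2 RMA level (vertical axis) of the 12 genes with the largest rises, 1 point per array, with bars for the mean ± SD of 3 arrays in nontreated cells (grey), with curdlan for 2 h (orange) and with curdlan and FK506 for 2 h (blue). In all 12 the blue points lie above every grey point, and for Il2, Nr4a1, Ccl1, Il23a and Nr4a3 they also lie below the orange ones by a called difference.

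The upstream sequence of 4 raised genes is given to show the letters around their starts, with 2 genes not called different between curdlan alone and curdlan with FK506 (Cxcl2, Nfkbia) and 2 called lower with FK506 (Il2, Ccl1). Each window holds the 250 bases before a RefSeq transcript start (GRCm38.p6), 5′ to 3′ on the strand of the gene. Capitals mark matches to the kappa B consensus, the letters that NF-kB dimers bind, in Cxcl2 and Nfkbia, and to GGAAAA, the core that NFAT binds, in Cxcl2, Il2 and Ccl1, on either strand, so that GGAAAA on the other strand appears as TTTTCC.
Cxcl2, chr5:90903649-90903898, plus strand: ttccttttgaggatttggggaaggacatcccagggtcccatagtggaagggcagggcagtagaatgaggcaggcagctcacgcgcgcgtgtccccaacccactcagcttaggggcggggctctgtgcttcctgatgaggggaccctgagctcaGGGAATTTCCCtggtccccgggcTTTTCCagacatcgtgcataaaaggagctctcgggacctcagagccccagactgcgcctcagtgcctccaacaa
Nfkbia, chr12:55492648-55492897, minus strand: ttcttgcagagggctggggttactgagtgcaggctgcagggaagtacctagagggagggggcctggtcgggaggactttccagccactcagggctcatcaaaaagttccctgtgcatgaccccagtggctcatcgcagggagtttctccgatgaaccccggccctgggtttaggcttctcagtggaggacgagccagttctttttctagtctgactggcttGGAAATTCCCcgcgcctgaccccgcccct
Il2, chr3:37125955-37126204, minus strand: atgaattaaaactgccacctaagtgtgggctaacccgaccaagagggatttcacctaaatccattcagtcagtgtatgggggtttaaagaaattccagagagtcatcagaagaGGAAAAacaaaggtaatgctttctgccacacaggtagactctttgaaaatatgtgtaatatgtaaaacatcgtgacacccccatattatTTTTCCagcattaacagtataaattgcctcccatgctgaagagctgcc
Ccl1, chr11:82179813-82180062, minus strand: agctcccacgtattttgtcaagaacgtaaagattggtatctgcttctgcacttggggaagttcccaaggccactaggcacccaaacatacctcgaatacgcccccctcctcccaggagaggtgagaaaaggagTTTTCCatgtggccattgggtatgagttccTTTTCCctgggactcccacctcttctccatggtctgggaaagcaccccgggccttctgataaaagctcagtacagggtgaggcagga
The Cxcl2 capitals GGGAATTTCCC hold overlapping matches on both strands between 97 and 87 bases before the start. Il2 holds GGAAAA from 137 to 132 bases before the start and on the other strand from 48 to 43, and Ccl1 holds it on the other strand at 117 to 112 and 87 to 82. The windows of Tnf and Il1b, not called different between these groups, also hold GGAAAA 2 times each. Those of Il1a and Atf3, likewise not called different, and of Nr4a1, called lower with FK506, hold neither match.

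NF-kB genes held the highest share of raised members among 25 response lists. Of 24 measured NF-kB subunits and feedback genes, 18 rose (75.0%) and 0 fell, and the list median was 1.03 beside −0.082 for all genes. Over all genes tested 1.81% were called higher and 0.537% lower, and the list counts below stand beside these shares. The ubiquitin-editing inhibitor Tnfaip3 (A20) read 7.84, 8.12 and 8.09 without treatment and 11.12, 11.04 and 11.16 with curdlan and FK506 (3.09 ± 0.06). The nuclear IkB proteins Nfkbid and Nfkbiz, which modulate transcription at NF-kB target genes, rose by 3.01 ± 0.06 and 2.80 ± 0.05, and Tnfaip2 by 2.32 ± 0.04. Nfkbia, whose protein IkB alpha holds NF-kB in the cytoplasm, read 10.67, 10.64 and 10.64 against 12.28, 12.27 and 12.28 (1.62 ± 0.04). The subunit genes Rel (1.06), Nfkb2 (0.89) and Relb (0.81) rose, and Rela (0.37) stayed under the fold threshold. Nfkb1 lay outside the tested probe sets and was not analysed.

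Most of the signalling components themselves were not called. Of 19 measured dectin-1 and SYK-CARD9 components 2 rose and 1 fell, with a median of 0.10. The share that rose was 10.5%, and 5.0% among the calcium, calcineurin and NFAT components, beside 1.81% of all genes. The kinase gene Src read 7.92, 7.82 and 7.90 without treatment and 9.02, 8.91 and 8.97 with curdlan and FK506 (1.08 ± 0.04), and the paracaspase gene Malt1 rose by 1.02 ± 0.06. Rasgrp1, an exchange factor for RAS, fell by 0.87 ± 0.04. Of 20 calcium, calcineurin and NFAT components only Nfat5, the osmotic stress member that calcineurin does not control, passed, and narrowly (0.60 ± 0.08), since without nontreated replicate 1 it was at 0.50. Nfatc1 (0.28) and Nfatc2 (0.10) did not pass. Rcan1, a calcineurin inhibitor that is itself an NFAT target, read 7.88, 8.09 and 8.05 in nontreated cells and 7.77, 7.85 and 7.83 with curdlan and FK506 (−0.19 ± 0.06, limma adjusted p = 0.0585), so it was not raised over nontreated cells.

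Immediate early transcription factors rose in part. Of 18 EGR, NR4A and related early response genes 11 rose and 0 fell, with a median of 0.71. Egr1 read 8.63, 8.54 and 8.37 against 10.48, 10.42 and 10.54, and Egr3 read 8.54, 8.22 and 8.33 against 10.29, 10.33 and 10.37, a rise of 1.97 for each. Egr2 rose by only 0.79 ± 0.06. Of 19 AP-1 and related bZIP factors 6 rose and 0 fell (median 0.47). Besides Atf3 these were Fosb (2.88 ± 0.16), the small MAF protein gene Maff (2.27 ± 0.17), Junb (1.77 ± 0.07), Jund (0.93) and Fosl1 (0.65). Fos was at 0.57 ± 0.12, short of the fold threshold, and passed under 6 of the alternatives.

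A minority of the feedback inhibitors of kinase and cytokine signalling rose. Of 16 MAP kinase phosphatases and Sprouty proteins 5 rose and 1 fell, although the list median was −0.04. Dusp1, which inactivates p38 and JNK, read 8.46, 8.46 and 8.38 without treatment and 10.93, 10.86 and 11.08 with curdlan and FK506 (2.52 ± 0.06). Dusp5 (1.80), Dusp2 (1.54), Dusp8 (1.33) and Dusp3 (0.60) rose, the last narrowly, and Dusp6, a phosphatase of ERK, fell by 1.21 ± 0.08. Among 18 SOCS and other cytokine feedback genes 5 rose, namely Socs3 (2.16), the mRNA-decay factor genes Zfp36 (2.12) and Zfp36l1 (0.84), the interleukin-1 receptor antagonist Il1rn (1.87) and Cish (0.73).

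Of 34 chemokine genes 10 rose and 0 fell, with a list median of 0.03. After Cxcl2 and Ccl1 came Cxcl16, a membrane-bound chemokine (2.56 ± 0.15), Ccl4 (2.29 ± 0.07), Cxcl10 (1.93 ± 0.08) and Ccl3 (1.88 ± 0.10). Ccl22 (1.46), Cx3cl1 (0.83), Ccl12 (0.71) and Ccl9 (0.71) were the other raised chemokines. Among 48 genes of interleukins and growth factors 10 were raised, Il16 was lowered (−0.73 ± 0.07), and the median was −0.03. Il12b, the p40 subunit shared by interleukin-12 and interleukin-23, read 6.44, 6.00 and 5.97 without treatment and 7.22, 7.34 and 7.39 with curdlan and FK506 (1.18 ± 0.10). Csf1 (2.09), Clcf1 (2.01), Lif (1.80), Edn1 (1.06) and Il1f9 (0.60) also rose, the last narrowly.

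Other cytokine genes did not pass the test. Csf2, the gene of GM-CSF, was at 0.39 ± 0.14 (limma adjusted p = 0.0701). Il6 and Il10 were both at −0.01 and Ifnb1 at −0.30, but with nontreated means of 3.51, 4.21 and 5.30 they lay at or below the lower quartile of levels, where small changes are hidden. Of 15 TNF superfamily ligands 3 rose. Tnf was already high in nontreated cells at 11.26, 11.06 and 11.13 and reached 12.97, 12.89 and 12.93 (1.78 ± 0.05), and the costimulatory ligand Tnfsf9 (4-1BBL) rose by 2.10 ± 0.08 and Tnfsf15 by 1.5 ± 0.14.

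Of 20 DC maturation and costimulation genes 10 rose, 10 were not called and 0 fell (median 0.58). Cd83 read 7.96, 8.04 and 8.04 against 11.70, 11.62 and 11.71, and the costimulatory receptor Cd40 read 9.06, 9.21 and 9.23 against 11.40, 11.41 and 11.46 (2.26 ± 0.06). Marcksl1 (1.61 ± 0.25), whose nontreated replicate 1 read 5.41 beside 6.45 and 6.46, the adhesion molecule Icam1 (1.54 ± 0.04) and the inhibitory ligand Cd274, or PD-L1 (1.21 ± 0.06), rose as well. None of 9 MHC class II presentation genes passed in limma, beside 1.81% of all genes called higher, so that the count of 0 says nothing particular of this list. An unadjusted limma p under 0.05 was met by 3 of them. Over all 19937 genes 6285 met it, which is the background for the counts at this level in the lists below. H2-Ab1 and H2-Eb1 stood at 0.17 and 0.15.

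Pattern recognition and interferon genes responded in part. Of 26 pattern recognition receptors and adaptors 6 rose and Tlr3 fell (−0.67), the latter not past the threshold after median centring (−0.56) or without nontreated replicate 3 (−0.57). Nod2, a sensor of muramyl dipeptide, rose by 1.17 ± 0.05, the inflammasome sensor Nlrp3 by 1.07 ± 0.07, and the C-type lectins Clec4e (Mincle) and Clec4d by 0.86 and 0.85. Among 27 interferon-stimulated genes 3 rose, namely Cxcl10, Ifi205 (1.12 ± 0.15) and, narrowly, Rsad2 (0.59 ± 0.11), and the list median was −0.06. Of 8 interferon regulatory factors 3 rose, led by Irf8 at 8.79, 8.78 and 8.77 against 10.29, 10.34 and 10.39 (1.56 ± 0.04). Irf4 (1.09 ± 0.05) followed, and Irf5 (0.66 ± 0.05) was at 0.58 when quantile normalization was repeated.

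Among stress and survival genes the lists differed in the share that rose. Of 15 NRF2 oxidative stress genes 8 rose and 0 fell, with a median of 0.71. The haem-degrading enzyme gene Hmox1 read 8.39, 8.65 and 8.71 against 10.30, 10.18 and 10.27 (1.67 ± 0.07), the cystine carrier Slc7a11 rose by 1.60 ± 0.11, the autophagy receptor Sqstm1 by 1.20 ± 0.04 and the sulfiredoxin gene Srxn1 by 0.93 ± 0.06. Txnrd1 (0.83), Gclc (0.81), Nqo1 (0.71) and Nfe2l2 (0.71), the gene of NRF2, were the other 4. Among 22 survival and apoptosis regulators 7 rose and 0 fell, and after Gadd45b these were led by Cflar, an inhibitor of caspase 8 (1.97 ± 0.11), the TNF receptor adaptor Traf1 (1.75 ± 0.05) and Bcl2l1, or BCL-XL (1.21 ± 0.05). Of 20 unfolded protein and integrated stress genes Ppp1r15a, a cofactor that reverses eIF2 alpha phosphorylation (1.92 ± 0.06), and Herpud1 (0.93 ± 0.04) rose. None of 11 heat shock chaperones passed in limma (3 at an unadjusted p under 0.05), with Bag3 at 0.38 and Dnaja1 at 0.33.

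Most genes of the metabolic, chromatin and proliferation lists were not called. The share that rose was 11.8% in the prostaglandin list, 10.5% in the cholesterol list and 5.88% each in the demethylase and glycolysis lists. Over all genes it was 1.81%, so that a count of 0 in the replication or lysosomal list says nothing particular of that list. Kdm6b, the demethylase of histone H3 lysine 27, read 7.88, 7.98 and 7.99 without treatment and 11.00, 10.93 and 11.03 with curdlan and FK506 (3.03 ± 0.05), and it was the only gene of 17 histone lysine demethylases to pass. In the prostaglandin list of 17 genes Ptgs2, the inducible cyclooxygenase, rose by 2.02 ± 0.10 and the prostaglandin E2 receptor Ptger4 by 1.66 ± 0.11. Of 19 cholesterol genes Insig1 (0.87) and Hmgcs1 (0.71) rose and the exporter Abcg1 (−0.65) fell, the last no longer past the threshold after median centring (−0.54). Of 17 glycolysis and glucose uptake genes only Slc2a6 passed, and narrowly (0.61). None of 30 DNA replication and mitosis genes passed in limma, where 17 had an unadjusted p under 0.05, beside 6285 of all 19937 genes. The list median of −0.15 compares with −0.082 for all genes. Cdc6 (−0.55) and Cdt1 (−0.51), which license replication origins, were nearest to the threshold. None of 18 lysosomal genes passed (7 at an unadjusted p under 0.05), with Lamp2 at 0.35 and Ctsb at 0.20.

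**Figure D3:**
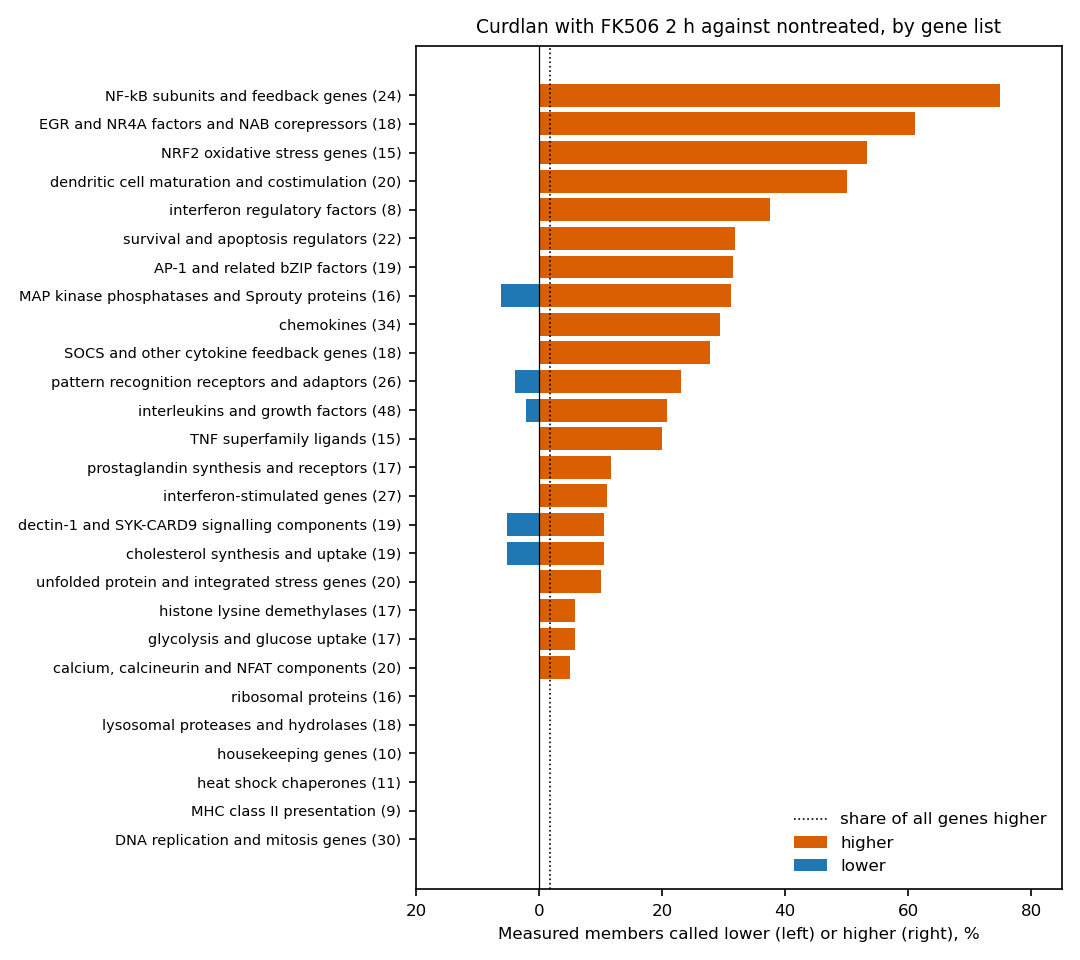
Share of the measured members of 25 response lists and 2 reference lists (vertical axis, number measured in brackets) that were called higher (orange, right) or lower (blue, left) with curdlan and FK506, in percent (horizontal axis), with the share of all genes called higher (1.81%) as a dotted line. NF-kB genes lead with 75.0% higher, and 6 lists, both reference lists among them, hold no called gene.

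Housekeeping genes and the markers of other cells gave a background. Actb was at 0.02 ± 0.03, and 0 of 10 housekeeping and 0 of 16 ribosomal protein genes passed in limma, with 3 of each at an unadjusted p under 0.05. Over all 19937 genes 6285 were at that level. In either direction 2.35% of all genes were called, so that a count of 0 says nothing particular of these lists or of the cell-type lists below. The largest differences in these 2 lists were those of Ywhaz (0.18), Sdha (−0.17), Rpl27 (−0.24) and Rps19 (−0.22). Among conventional DC markers only Irf8 and Irf4 passed, and among 7 macrophage markers only Mertk, which fell. The summed level of the macrophage markers was high too, between 13.47 and 13.59 without treatment and between 13.50 and 13.56 with curdlan and FK506. That of the conventional DC markers lay between 14.34 and 14.53 and between 14.69 and 14.76. No gene passed in limma among 6 markers of plasmacytoid DCs, 7 of T cells, 5 of B cells, 6 of NK cells, 8 of neutrophils, 7 of mast cells and basophils, 10 of fibroblasts and 3 of erythroid cells, of which 2, 1, 1, 2, 2, 0, 1 and 1 had an unadjusted p under 0.05. The summed level of the fibroblast markers lay between 9.46 and 9.89 without treatment and between 9.36 and 9.42 with curdlan and FK506, and that of the B cell markers between 7.76 and 8.24 and between 7.69 and 7.78. In none of the 8 lists did an array with curdlan and FK506 exceed the nontreated range. Examples from the other lists were Pacsin1 (0.29), Ly6d (−0.15), Cd5 (−0.22), Cd8a (−0.20), Cd79b (−0.30), Cd79a (−0.20), Klrb1c (0.41), Prf1 (−0.29), Camp (−0.22), S100a9 (−0.22), Kit (−0.25), Tpsb2 (−0.15), Thy1 (−0.29), Col1a2 (−0.26), Gata1 (−0.24) and Klf1 (−0.21). Nontreated replicate 1 was the highest nontreated array for all of these but Cd5 and Klrb1c. Thy1, for instance, read 6.99, 6.37 and 6.46 without treatment and 6.24, 6.36 and 6.33 with curdlan and FK506.

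Among called genes falls were fewer than rises, and the largest fall was smaller than the 12 largest rises, whereas with no fold threshold 1996 genes were lower and 1519 higher. The split with no fold threshold was not recomputed after median centring, which moved the median difference of all genes from −0.082 to 0.028. F630028O10Rik read 9.10, 9.36 and 9.40 in nontreated cells and 7.58, 7.72 and 7.65 with curdlan and FK506, a 3.11-fold fall (−1.64 ± 0.10, limma adjusted p = 5.6e-08). Dusp6 read 9.71, 10.05 and 10.06 against 8.69, 8.73 and 8.76, and Mertk, a receptor for the clearance of apoptotic cells, read 7.90, 8.26 and 8.16 against 6.88, 7.03 and 7.04 (−1.12 ± 0.09). In all 3 genes the groups were apart, with nontreated replicate 1 the lowest of the nontreated arrays. The sialyltransferase gene St8sia4 (−1.15), the mitochondrial phosphatase gene Ppm1k (−1.12), Rnf144b (−1.11), which encodes a ubiquitin ligase, Stx19 (−1.10), which encodes a syntaxin, Nxpe5 (−1.07), Fam78a (−1.03) and the transporter gene Abcg3 (−1.01) made up the remaining 10 largest falls.

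Whether FK506 had altered a level was read from the direct comparison of curdlan alone with curdlan and FK506 at 2 h. It shares the arrays with FK506 with the comparison above. Il1a, Atf3, Il1b, Nfkbia and other leading rises were not called different between the groups, while chemokine, cytokine and early response genes such as Ccl4, Il2 and Nr4a1 were lower with FK506 and a smaller set led by Fosb was higher. With FK506 152 genes were lower than with curdlan alone (0.762% of those tested) and 72 were higher (0.361%). For 95.5% of all genes the 95% interval of the difference lay inside the 1.5-fold threshold, and for NF-kB genes this held for 23 of 24.

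All but 1 of the 24 NF-kB genes were not called different between curdlan alone and curdlan with FK506. Over all genes only 0.762% were called lower and 0.361% higher with FK506, so that this count says nothing particular of the list. Nfkbia read 12.27, 12.28 and 12.33 with curdlan alone against 12.28, 12.27 and 12.28 with FK506, a difference of 0.02 with a 95% interval from −0.06 to 0.10. The upstream window of Nfkbia, printed above, holds the kappa B letters and no GGAAAA, whereas that of Cxcl2, also not called different, holds both. Whether these letters bear on the effect of FK506 was not tested. Tnfaip3 was slightly higher with FK506 (curdlan minus curdlan with FK506 −0.26, interval −0.40 to −0.13), and Nfkbiz slightly lower (0.22, 0.11 to 0.33), both under the threshold. Nfkbid was the 1 NF-kB gene called lower with FK506 (0.59), and it fell short after median centring (0.52). The difference was 0.23 (−0.03 to 0.49) for Il1a, 0.12 (−0.28 to 0.52) for Il1b, 0.19 (0.07 to 0.31) for Tnf, 0.13 (−0.01 to 0.27) for Atf3 and 0.06 (−0.17 to 0.28) for Mir155. For Cxcl2 it was 0.36 (0.05 to 0.68), an interval that reaches past the threshold. With curdlan alone Il1b, Nfkbia, Atf3 and Tnf had mean levels of 12.46, 12.29, 12.23 and 13.12, beside 13.48 for Actb. A difference between levels near the top of the scale may be understated, which was not tested. Kdm6b (0.20), Cd83 (0.26), Cd40 (−0.22), Irf8 (0.03) and Icam1 (−0.01) were likewise not called.

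**Figure D4:**
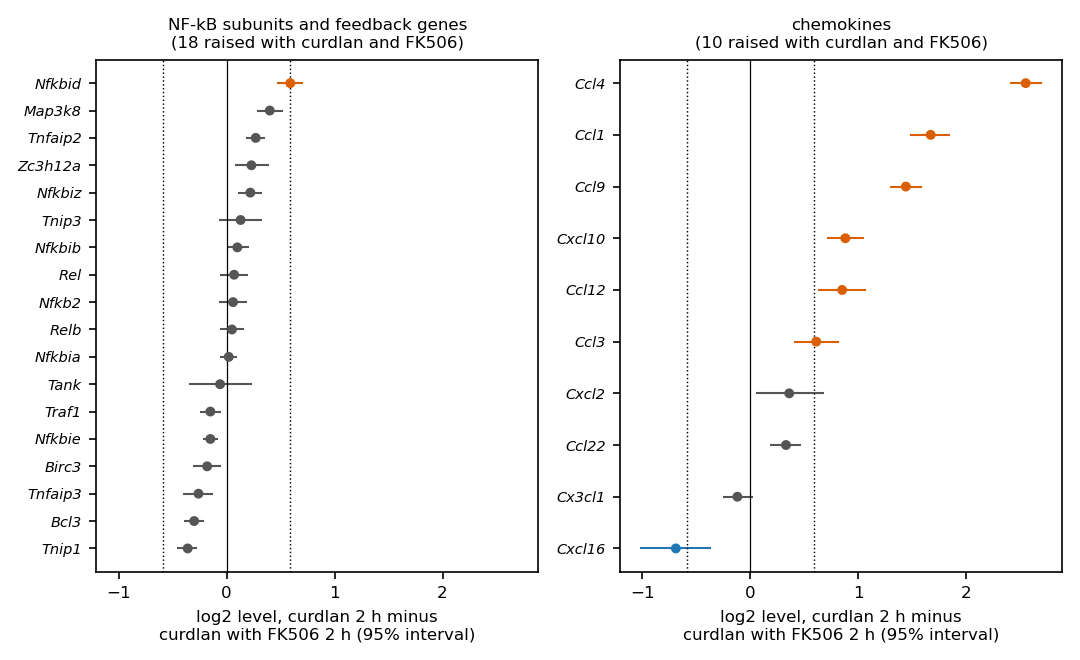
Difference in log2 level between curdlan alone and curdlan with FK506 at 2 h (horizontal axis), with 95% limma intervals, for the NF-kB genes and the chemokines that rose with curdlan and FK506, where orange marks genes called lower with FK506, blue a gene called higher and dotted lines the 1.5-fold threshold. The NF-kB genes lie around 0 with Nfkbid (0.59) at the threshold, and the chemokines run from Cxcl16 (−0.69) to Ccl4 (2.55).

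Some genes rose with FK506 present but stopped short of their level with curdlan alone. Ccl4 (MIP-1 beta) had a mean of 6.79 without treatment, 9.08 with curdlan and FK506 and 11.63 with curdlan alone, so that it was 4.89-fold above nontreated and 5.86-fold below curdlan alone (2.55 ± 0.07, SE). Ptgs2 read 5.88, 7.90 and 10.01 in the same order, Il12b 6.14, 7.32 and 9.35, and Edn1, the gene of endothelin-1, 9.51, 10.57 and 12.31, with differences of 2.11, 2.03 and 1.74 to curdlan alone. Il1bos, a transcript antisense to Il1b, read 5.13, 6.31 and 8.02, although Il1b itself was not called different. Il2 was 3.05-fold and Ccl1 3.17-fold below curdlan alone. Among the NR4A and EGR genes the difference was 1.51 for Nr4a1, 0.80 for Nr4a3, 1.59 for Egr2 and 1.10 for Egr3, while Egr1 (0.30, interval 0.17 to 0.44) was not called. Il23a (1.07), Csf1 (1.40), Lif (0.67), Cxcl10 (0.88), Tnfsf15 (1.29), Dusp2 (0.89), Il1rn (0.80) and Clec4e (0.70) were also lower with FK506.

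Other genes did not pass against nontreated cells at all and were lower with FK506 than with curdlan alone. Ccl7, a monocyte attractant, read 7.34, 7.18 and 7.25 without treatment, 7.53, 7.59 and 7.62 with curdlan and FK506 and 11.23, 11.34 and 11.40 with curdlan alone, a 13.4-fold difference between the last 2 groups (3.75). Its difference to nontreated cells was 0.32 ± 0.05. The cholesterol 25-hydroxylase gene Ch25h read 8.62, 8.88 and 8.83, then 8.63, 8.71 and 8.73, then 11.33, 11.34 and 11.47 in the same order. The TNF ligands Tnfsf14 (0.07 against nontreated, 2.62 to curdlan alone), Tnfsf8 (−0.19, 1.72) and Tnfsf18 (−0.12, 1.06), the nuclear receptor Nr4a2 (−0.18, 2.10) and the phosphatase gene Dusp14 (−0.26, 1.92) had values of the same kind. So had the chaperone gene Hspa1a (0.18, 1.88), Csf2 (0.39, 1.67), Rcan1 (−0.19, 1.57) and Ccl2 (−0.02, 1.09).

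A further group rose to higher levels with FK506 than without it. Fosb read 7.35, 6.44 and 6.67 in nontreated cells, 8.10, 8.11 and 7.99 with curdlan alone and 9.73, 9.63 and 9.73 with curdlan and FK506, a 3.10-fold excess over curdlan alone (−1.63 ± 0.16 on the scale curdlan minus curdlan with FK506, limma adjusted p = 1.44e-05). Grap2, an adaptor of the GRB2 family, Nod2 and Pdcd1lg2 (PD-L2), the ligand of PD-1, rose with FK506 by 0.78, 1.17 and 0.86 over nontreated cells, whereas with curdlan alone they stood at −0.44, 0.16 and −0.14 against the same cells. Nod2 read 7.45, 7.46 and 7.47 without treatment, 7.62, 7.72 and 7.52 with curdlan alone and 8.64, 8.64 and 8.61 with FK506 added. Crybg1 rose by 0.80 with an excess of 0.97 over curdlan alone, but with the mean of its 2 probe sets in place of the brighter one it was at 0.37 and did not pass. H2-K2 read 6.63, 8.15 and 9.03 on average without treatment, with curdlan alone and with FK506 added, and since it belongs to the near-identical MHC class I family its signal may come from several genes. Cxcl16 (−0.69) and Src (−0.71) were also higher with FK506 than with curdlan alone, and Cxcl16 was no longer called without curdlan 2 h replicate 3 (−0.57).

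**Figure D5:**
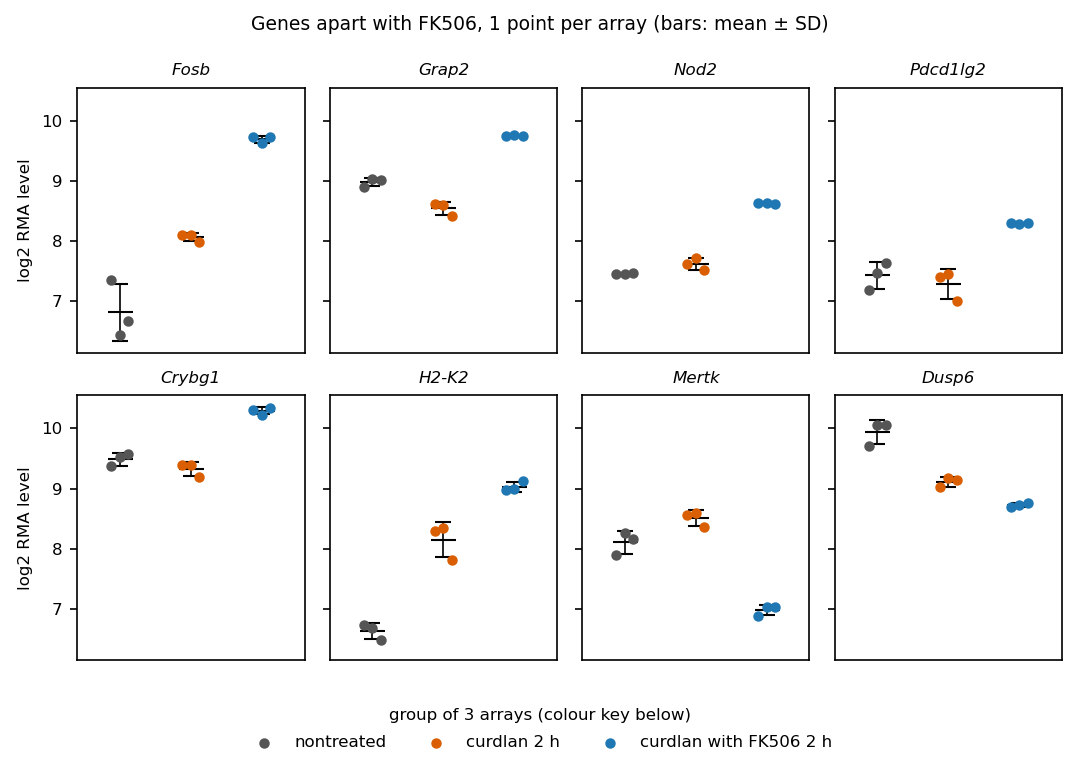
Log2 RMA level (vertical axis) of 8 genes, 1 point per array, with bars for the mean ± SD of 3 arrays in nontreated cells (grey), with curdlan for 2 h (orange) and with curdlan and FK506 for 2 h (blue). For Fosb, Grap2, Nod2, Pdcd1lg2, Crybg1 and H2-K2 the blue points lie above both other groups, and for Mertk and Dusp6 below both.

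Matches to these letters were counted over the upstream windows of all tested genes. RefSeq gave 19176 windows for 15613 of them, and the kappa B consensus was searched on both strands, with overlapping matches counted once per window. It was found in 4.33% of all windows, in 13.3% of the 360 windows of raised genes, in 5.22% of the 115 windows of lowered genes and in 41.9% of the 31 windows of the NF-kB list. Genes lower with FK506 than with curdlan alone held it in 5.85% of 171 windows. GGAAAA stood in 19.6% of all windows, in 21.1% of those of raised genes in 25.1% of those of genes lower with FK506 and in 20.5% of those of genes higher with FK506, and also in 25.8% of the windows of the NF-kB list and 26.9% of those of the chemokine list. TGANTCA, the AP-1 letters, were found in 6.04% of all windows, 7.50% of those of raised genes and 9.36% of those of genes lower with FK506 and 22.6% of those of the NF-kB list. In the first 3 of these sets TGACGTCA, the CREB and ATF letters, stood in 2.02%, 4.17% and 5.26%, and the CArG box of SRF in 1.26%, 2.22% and 2.92%. A match is a run of letters and not a bound site, and windows of 1 gene can overlap.

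Of 300 microRNA genes tested 8 were higher and 1 lower, or 3.0% beside 2.35% of all genes in either direction, with a median of −0.08. The probe sets read RNA of the microRNA gene and not the mature form. The mature forms of 4 raised genes are shown because they are known regulators of NF-kB signalling or of cell growth, with the seed (bases 2 to 8), by which a microRNA pairs with its targets, in capitals and RefSeq coordinates in GRCm38.p6.
mmu-miR-155-5p, chr16:84714143-84714165, plus strand: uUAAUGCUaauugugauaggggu
mmu-miR-146a-5p, chr11:43374435-43374456, minus strand: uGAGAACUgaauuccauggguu
mmu-miR-221-3p, chrX:19146307-19146329, minus strand: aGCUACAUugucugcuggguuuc
mmu-miR-222-3p, chrX:19146901-19146923, minus strand: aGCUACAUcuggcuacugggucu
The last 2 share the seed GCUACAU and lie next to each other on chromosome X. Mir155 read 5.27, 5.75 and 5.63 without treatment and 8.78, 8.67 and 8.92 with curdlan and FK506, with 8.87, 8.93 and 8.75 for curdlan alone. Mir146, which the annotation uses for miR-146a, read 3.97, 4.57 and 4.81 against 6.19, 5.88 and 6.11 (1.61 ± 0.27). Mir221 rose by 0.84 ± 0.08 and Mir222 by 0.83 ± 0.12. Mir694 (1.26), Mir142 (1.06), Mir680-1 (0.93) and Mir350 (0.62) were the other raised genes and Mir25 (−0.78) the lowered one, and Mir350 did not pass without nontreated replicate 1 (0.39). Mir694 was the only one called different from curdlan alone (−0.78, higher with FK506), and it was no longer called without curdlan 2 h replicate 3 (−0.64).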

How the data were processed

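RNA of D1 cells was read on 1-colour Affymetrix Mouse Gene ST arrays, 3 biological replicates in each of 5 groups (15 arrays). The deposited values are log2 intensities that the authors computed with RMA in the affy package, which corrects background, quantile-normalizes and summarizes by median polish, and R 2.15.2 is named in the submitters' processing notes. Quantile normalization hides a shift of all genes at once.

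Of 34760 probe sets, 21640 carried 1 symbol in the platform annotation, 1321 several and 11799 none. Only the first were tested, and the brightest was used for the 954 genes with several, which left 19937 genes. By gene ID 19855 matched RefSeq. limma 3.58.1 in R 4.3.3 was fitted with 1 mean per group over all 15 arrays (10 residual degrees of freedom), with two-sided moderated tests and Benjamini-Hochberg adjustment. A gene was called at an adjusted p under 0.05 and a fold of at least 1.5 (log2 0.585), and "rose" and "fell" are used of called genes. The median SE of a log2 difference was 0.077, and the number of arrays limits the precision. No array was left out.

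The members, the comparisons, the rule for naming genes and the 37 gene lists (637 genes, 581 measured: 25 response, 2 reference and 10 cell-type lists) were chosen with earlier results of these data known, so lists are described by counts and medians and were not tested. Lists share genes. The rule took the 12 largest rises and 10 largest falls without overlap, for each list at most 4 called members (2 where none passed), the 6 largest excesses over and deficits from curdlan alone among raised genes, and a fixed set. Other called list members, microRNA genes other than Mir155, genes not raised but lower than with curdlan alone, and the DC markers were named after their values were seen. The fit was tested on simulated data.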

Additional observations from a re-analysis of the deposited data

Results flagged for a closer look

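Probe sets outside the tested genes also carried signal. In a fit over all probe sets, added after the data were seen, 32 of the 1321 probe sets with several symbols were higher and 3 lower with curdlan and FK506 than in nontreated cells (2.65% called). Of the 11799 probe sets with no symbol 333 were higher and 59 lower (3.32%), beside 2.35% of the tested genes. Their identity was not analysed here.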

How the results depend on the processing

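Results were recomputed over other settings, one at a time. With no fold threshold 1519 genes were higher and 1996 lower with curdlan and FK506 than in nontreated cells, and 616 were lower and 893 higher than with curdlan alone; a fold of at least 2 gave 163 and 10, and 61 and 7. Median centring left 47 lower genes. Leaving out 1 array at a time gave 316 to 430 higher and 102 to 147 lower against nontreated, and 148 to 162 lower and 62 to 87 higher with FK506 than with curdlan alone. Without both outlying arrays, a setting added after the data were seen, the counts were 320, 147, 164 and 65. Array weights, whose estimation stopped before its convergence tolerance was met, gave 324, 155, 162 and 70.

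Same-numbered nontreated and FK506 arrays had correlations of −0.30, −0.28 and 0.11 in their deviations from the group means. Differently numbered pairs lay between −0.37 and 0.37. Deviations within a group of 3 arrays constrain each other, so these values cannot decide whether replicate numbers pair the arrays. With a replicate block 354 genes were higher and 107 lower against nontreated, and 151 lower and 71 higher with FK506 than with curdlan alone.

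Of 3300 alternative values of the log2 difference to nontreated cells, over 208 named genes, 3238 kept their direction and side of the threshold, 54 (21 genes) fell under it, 8 (2 genes, Fos and Cdc6) passed it and 0 reversed. For the difference to curdlan alone these were 3253, 23 (9 genes), 24 (7 genes) and 0. Of 900 alternative list counts 832 stayed within 1.5 times. The causes were not tested. A gene near the lower quartile of levels (5.28) may change without a visible difference, and folds from such levels may understate the change, which was not tested.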

Other observations

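Some genes were lower with curdlan and FK506 than in either other group at 2 h, and they were picked after their values were seen. Mertk had mean log2 levels of 8.11 in nontreated cells, 8.51 with curdlan alone and 6.98 with curdlan and FK506. Lbh, a transcription cofactor, read 9.24, 9.27 and 9.23 in the nontreated arrays, 9.49, 9.53 and 9.67 with curdlan alone and 8.36, 8.34 and 8.40 with FK506 added, so that it was below nontreated cells by a log2 difference of −0.88 ± 0.05 (SE) and below curdlan alone by 1.20 (95% interval 1.10 to 1.30). The neutral amino acid carrier gene Slc1a4 (−0.62 against nontreated, 1.29 to curdlan alone), the scaffold gene Frmd4b (−0.64, 1.42), the kinase gene Sgk1 (−0.65, 1.02), the phosphatase gene Ptpn22 (−0.61, 1.16) and the adaptor gene Sla (−0.63, 0.67) had values of the same kind. Against nontreated cells these 5 did not pass after median centring, where they lay between −0.54 and −0.50.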
